A study of Mus musculus with 8 samples.

Results

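Glutathione and antioxidant enzymes were examined in the subventricular zone of the lateral ventricle, a germinal niche of the adult brain, in 3xTg mice and in their strain controls (WT). The members were every probe of the deposited array table that the platform annotation assigns to a cytosolic or microsomal glutathione transferase, a glutathione peroxidase, a peroxiredoxin, a superoxide dismutase, a thioredoxin reductase, or to Cat, Gclc, Gclm, Gss, Gsr, Nqo1, Hmox1, Txn1 or Nfe2l2. This rule gave 70 of 32684 probes and 50 of 21363 named genes. It selects by gene name, and it was chosen with earlier results of these data known. Tissue came from female mice aged 7 months, with 4 samples from 3xTg mice and 4 from WT mice, and the labels give both groups a background of C57BL/6J (B6) females crossed with 129S1/SvImJ (129S) males. As background, 3xTg mice model Alzheimer's disease, and their alterations include human APP and MAPT transgenes under a Thy1 cassette, which is active mainly in neurons. The labels give the line by name only and do not say whether a sample came from 1 mouse or from several.

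Samples were hybridised in pairs, a 3xTg sample together with the like-numbered WT sample, on 4 arrays. The labels give Cy5 for each 3xTg sample and Cy3 for each WT sample, while the labelling protocol names Cy3 alone, so the dye of each sample rests on the label field. With these dyes an effect of the dye and an effect of the genotype cannot be told apart. Values are log2 normalized intensities as deposited, and every difference is 3xTg minus WT within arrays, in log2 units. A difference passed where its adjusted p in limma, over all 32684 probes, was under 0.05. In whole tissue, fewer cells of a type and less RNA per cell cannot be told apart.

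Cells produce superoxide and hydrogen peroxide as by-products of respiration. Superoxide dismutases turn superoxide into hydrogen peroxide, which catalase, glutathione peroxidases and peroxiredoxins then reduce. Glutathione peroxidases draw their electrons from the tripeptide glutathione and most peroxiredoxins draw theirs from thioredoxin, and both carriers are restored with NADPH by a reductase. Glutathione transferases attach glutathione to reactive compounds such as the aldehydes left by lipid peroxidation. In the brain astrocytes are known for a high glutathione content and supply neurons with its precursors. The transcription factor Nrf2, encoded by Nfe2l2, binds antioxidant response elements in front of many of these genes and raises their transcription under oxidative stress.

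The core of this element, TGACNNNGC, was searched on both strands of the RefSeq promoter windows (GRCm38.p6), which run from 250 bases before to 50 bases after a transcription start. Windows were found for 44 of the 50 genes. Of their 58 windows 9 held a match (15.5%), against 12.4% of all 32851 windows, so a match was about as common here as elsewhere in windows of this length. The sequences shown are the matches of these 9 genes with their surroundings before the start site, on the strand of the gene, to show what was matched and in which members. Capitals mark the match, which reads on the opposite strand in Gclm, Mgst1, Prdx1, Sod1 and Txnrd1.
Gclm, chr3:122245403-122245451, + strand: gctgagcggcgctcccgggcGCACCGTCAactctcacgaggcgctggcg
Gsta3, chr1:21240444-21240492, + strand: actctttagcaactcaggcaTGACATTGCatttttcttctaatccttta
Gstm5, chr3:107895792-107895840, + strand: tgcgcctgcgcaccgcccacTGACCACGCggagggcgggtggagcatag
Gstm7, chr3:107931715-107931763, - strand: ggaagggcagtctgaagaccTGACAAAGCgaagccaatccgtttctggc
Mgst1, chr6:138140451-138140499, + strand: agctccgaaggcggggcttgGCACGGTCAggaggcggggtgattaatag
Nfe2l2, chr2:75704875-75704913, - strand: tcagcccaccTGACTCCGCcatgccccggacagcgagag
Prdx1, chr4:116685446-116685494, + strand: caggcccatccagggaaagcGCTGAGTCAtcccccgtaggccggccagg
Sod1, chr16:90220686-90220734, + strand: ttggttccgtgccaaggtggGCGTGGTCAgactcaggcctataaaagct
Txnrd1, chr10:82859094-82859142, + strand: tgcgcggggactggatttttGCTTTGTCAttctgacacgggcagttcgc
The match of Prdx1 also holds TGACTCA, the binding motif of AP-1, and those of the other 8 do not. The 9 genes differed between 3xTg and WT by -0.06 to 0.53, with a median of 0.08 and 7 above 0, among them Sod1 at 0.00 after rounding. The 35 genes whose windows held no match differed by -1.26 to 0.63, with a median of 0.00 and 18 above 0. A match of these letters is a description of the sequence and does not show binding.

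None of the 70 member probes passed in limma, where 0.621% of all probes passed as higher and 0.603% as lower in 3xTg (1.22% in either direction). At an unadjusted p under 0.05 lay 12 of the 70 probes (17.1%), against 18.0% of all probes. Of these members 5 were higher in 3xTg (7.14%, against 8.67% of all probes) and 7 lower (10.0%, against 9.34%). The 4 arrays gave 1 sign for 18 of them (25.7%), against 25.3% of all probes. For 1 member probe, that of Prdx2, the values of the 3xTg and WT samples did not overlap, against 4.53% of all probes. These shares of the members were close to those of the whole table or below them.

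The differences were also small in size. Taking each gene at its brightest probe, 26 of 50 genes lay above 0 and 24 below, and the median was 0.00, against 0.01 over all 21363 genes. The median size of a member probe's difference without its sign was 0.09, against 0.13 over all probes, and 52.9% of member probes lay under 0.1, against 39.9% of all. The 95% interval of the difference had a median half-width of 0.28 and lay wholly between -0.5 and 0.5 (1.41-fold either way) for 54 of the 70 probes. For these 54, a difference beyond 1.41-fold lay outside the interval, whereas for the other members the data leave a wider range. Differences of 0.5 or more were seen for 5 member probes (7.14%, against 4.68% of all probes), which belong to Gstm7, Mgst3, Gpx3, Gpx6 and Prdx2.

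**Figure D1:**
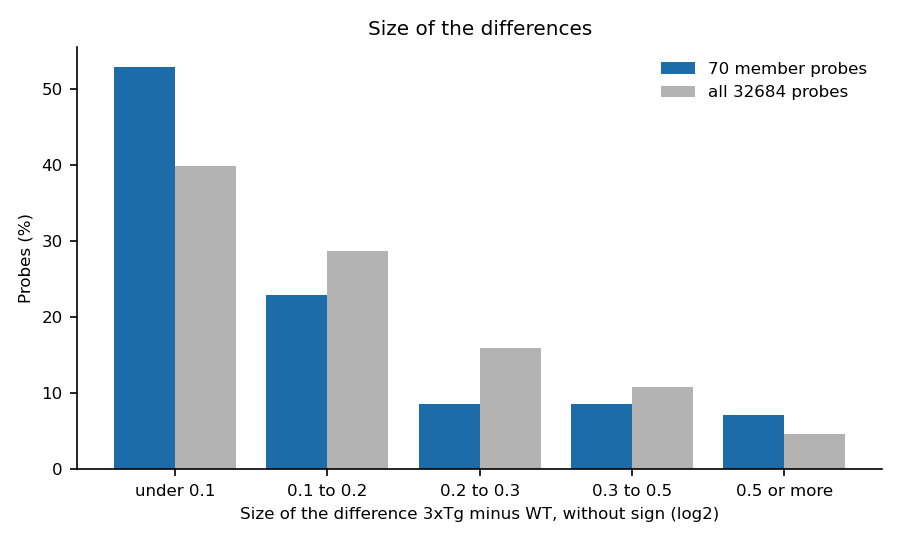
Percent of probes by size of the difference between 3xTg and WT, without its sign, in log2 units, for the 70 member probes (blue) and all 32684 probes (grey). Members are more often under 0.1 (52.9% against 39.9%) and also somewhat more often at 0.5 or more (7.14% against 4.68%).

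**Figure D2:**
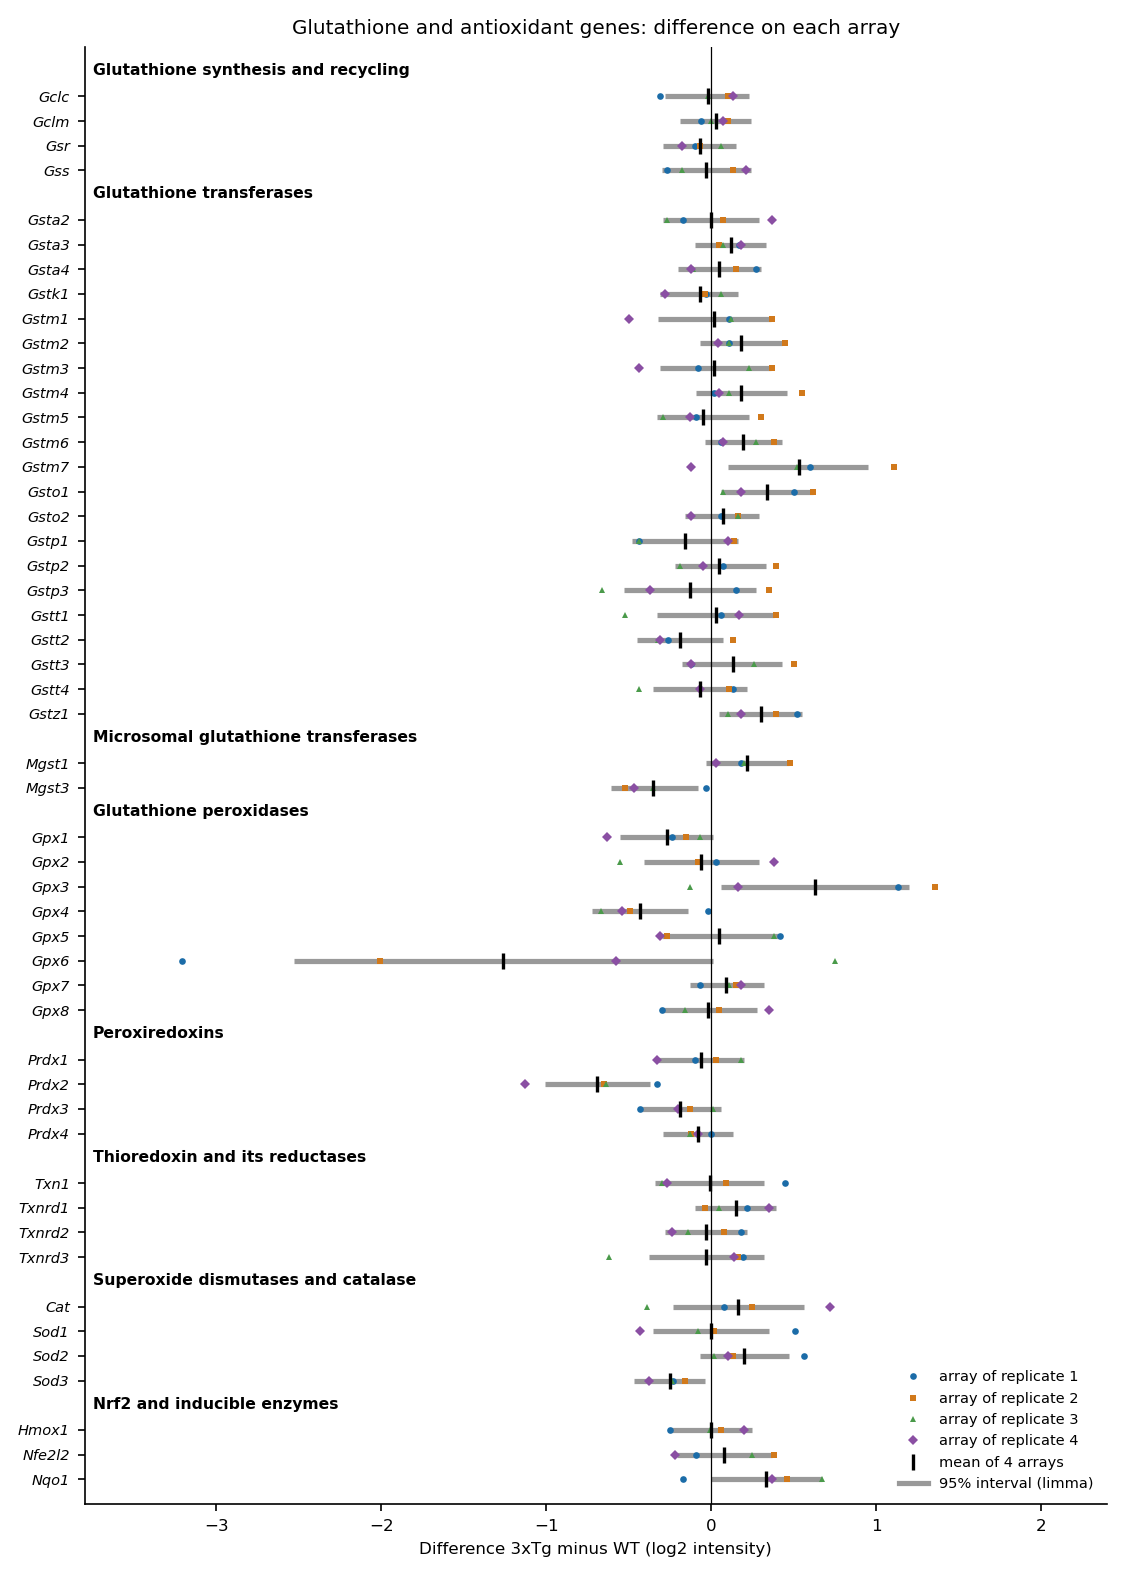
Difference 3xTg minus WT in log2 intensity for the brightest probe of each of the 50 member genes, grouped by role. Symbols are the 4 arrays, the black bar is their mean and the grey bar is the 95% interval from limma; most means lie near 0, and Gpx6 spans from -3.21 to 0.75.

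Enzymes that make and restore glutathione differed little. Gclc and Gclm, the catalytic and modifier subunits of the ligase that limits the rate of glutathione synthesis, differed by -0.02 (95% interval -0.28 to 0.23) and 0.03 (-0.19 to 0.24). Gss, which adds the final glycine, differed by -0.03 (-0.30 to 0.24). Each of these intervals excludes a change beyond 1.41-fold. Gsr, glutathione reductase, measured 14.20, 14.46, 14.44 and 14.51 in 3xTg replicates 1 to 4 and 14.30, 14.53, 14.37 and 14.69 in WT replicates 1 to 4 at its brightest probe. The groups overlapped, and the difference was -0.07 ± 0.09 (SE; limma, adjusted p = 0.741). A second Gsr probe differed by -0.33 ± 0.09 and lay below 0 on all 4 arrays, with an adjusted p of 0.144 in limma, and it is named here after its value was seen.

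The cytosolic glutathione transferases were the largest group, with 21 genes and 34 probes. At the brightest probe 15 of the 21 lay above 0, against 11239 of all 21363 genes, and the median was 0.05. In limma 3 of the 21 had an unadjusted p under 0.05, each of them higher in 3xTg. Of all 21363 genes 3872 did, 1869 of them higher. None of the 21 passed. The 3 were Gstm7, Gsto1 and Gstz1, and the other 18 genes lay between -0.19 (Gstt2) and 0.19 (Gstm6), with adjusted p of 0.369 or more in limma. The group's median was 0.37 on the array of replicate 2 and 0.06, 0.07 and -0.07 on those of replicates 1, 3 and 4, and -0.11 on the arrays of replicates 3 and 4 when these were fitted alone. The fit on replicates 3 and 4 alone was added after the data were seen. A difference that is largest on the arrays of replicates 1 and 2 has to be smaller in that fit.

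Gstm7, a transferase of the mu class, measured 12.65, 12.91, 12.58 and 12.23 in 3xTg replicates 1 to 4, against 12.05, 11.81, 12.06 and 12.35 in WT replicates 1 to 4. It was higher in 3xTg on 3 arrays and lower on that of replicate 4. The difference was 0.53 ± 0.18 (SE, 1.44-fold; limma, adjusted p = 0.201), 0.33 without replicate 2, and 0.20 on replicates 3 and 4 alone. The other Gstm7 probe differed by 0.11 ± 0.17. All 7 mu genes lie on chromosome 3 and resemble each other in sequence, so that single probes might not tell them apart. Of their 17 probes 15 lay above 0, against 17064 of all 32684 probes, with a median of 0.09 and a range of -0.08 to 0.53. Array by array, the median of these probes was 0.12, 0.30, 0.16 and -0.12 for replicates 1 to 4. The 5 Gstm6 probes ranged over 0.02 to 0.19 and the 3 Gstm2 probes over 0.06 to 0.18.

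Gsto1, an omega-class transferase that also reduces dehydroascorbate, measured 13.23, 12.97, 12.29 and 12.41 in 3xTg replicates 1 to 4, against 12.74, 12.34, 12.22 and 12.23 in WT replicates 1 to 4. It was higher in 3xTg on each array, but the groups overlapped. The difference was 0.34 ± 0.12 (SE; limma, adjusted p = 0.208), and 0.13 on the arrays of replicates 3 and 4 alone. Gstz1, the zeta-class enzyme that isomerises maleylacetoacetate in tyrosine breakdown, measured 12.78, 12.85, 12.55 and 12.78 in 3xTg replicates 1 to 4, against 12.26, 12.46, 12.45 and 12.60 in WT replicates 1 to 4. It too was higher in 3xTg on each array, and the lowest 3xTg sample lay below the highest WT sample. The difference was 0.30 ± 0.11 (SE; limma, adjusted p = 0.217), and 0.14 on replicates 3 and 4 alone. For Gstm7, Gsto1 and Gstz1 alike, the larger differences were on the arrays of replicates 1 and 2. The fit on replicates 3 and 4 alone therefore had to give smaller ones.

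The remaining classes were spread around 0. The 5 pi-class probes, of 3 genes on chromosome 19, ranged from -0.16 to 0.05. The 4 theta-class genes on chromosome 10 ranged from -0.19 to 0.13, and the 4 alpha-class probes from -0.16 to 0.12. Gsta4, known for conjugating the lipid peroxidation product hydroxynonenal, differed by 0.05 (95% interval -0.20 to 0.30). Gstk1, the kappa-class enzyme of mitochondria and peroxisomes, differed by -0.07.

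The microsomal transferases are membrane enzymes with transferase and peroxidase activity. Those measured, Mgst1 and Mgst3, differed in opposite directions, and no member probe was assigned to Mgst2. Mgst3 measured 12.03, 11.96, 12.55 and 11.19 in 3xTg replicates 1 to 4 at its brightest probe, against 12.06, 12.49, 12.91 and 11.66 in WT replicates 1 to 4. It measured 11.75, 11.73, 11.29 and 11.97 in 3xTg replicates at its other probe, against 11.96, 12.72, 12.83 and 12.15 in WT replicates. Both probes were lower in 3xTg on every array, with array differences from -1.54 to -0.03, and the groups overlapped at both. The differences were -0.35 ± 0.11 and -0.73 ± 0.22 (SE; limma, adjusted p = 0.185 and 0.167), and the second of these was -0.46 without replicate 3. Mgst1 lay above 0 on all 4 arrays at both probes, at 0.22 ± 0.11 and 0.28 ± 0.09, with adjusted p of 0.33 and 0.19 in limma. That gene is named after its values were seen.

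Of the 8 glutathione peroxidases 3 lay above 0 and 5 below, and none passed. Gpx4, which reduces lipid hydroperoxides within membranes and protects cells from ferroptosis, measured 13.98, 13.81, 13.60 and 13.39 in 3xTg replicates 1 to 4. In WT replicates 1 to 4 it measured 14.01, 14.29, 14.26 and 13.93. It was lower in 3xTg on every array, but by only 0.02 on that of replicate 1, and the groups overlapped. The difference was -0.43 ± 0.13 (SE; limma, adjusted p = 0.153). Gpx1, the cytosolic peroxidase, lay below 0 on all 4 arrays at -0.27 ± 0.12 (adjusted p = 0.287 in limma), and the 5 peroxidases other than Gpx3, Gpx4 and Gpx6 ranged from -0.27 to 0.09.

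Gpx6, which in mouse has cysteine in place of selenocysteine, had the widest SD of any member probe in 3xTg (1.77, n = 4), against 0.98 in WT. It measured 7.58, 7.30, 10.24 and 10.73 in 3xTg replicates 1 to 4, against 10.78, 9.32, 9.49 and 11.31 in WT replicates 1 to 4. The 3xTg samples of replicates 1 and 2 lay below all 6 other samples, and the other 3xTg samples lay within the WT range. The difference was -1.26 ± 0.55 (SE; limma, adjusted p = 0.281), it was -1.93 without replicate 3 and -0.61 without replicate 1, and it was 0.08 on the arrays of replicates 3 and 4 alone. This last fit was added after the data were seen and leaves out the most extreme arrays, so its difference had to shrink. Markers of striatal projection neurons, whose tissue adjoins the niche, set the same 2 samples apart. The summed intensity of 10 such markers was 15.91, 16.00, 17.79 and 17.83 log2 units in 3xTg replicates 1 to 4, against 18.15, 17.83, 17.43 and 18.07 in WT replicates 1 to 4. Gpx6 differed by -3.21, -2.01, 0.75 and -0.58 on the arrays of replicates 1 to 4, and the median striatal marker by -2.06, -1.65, 0.31 and -0.36. All 10 striatal markers lay below 0 over the 4 arrays. The part of striatal tissue in the Gpx6 result was not tested.

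Gpx3, the secreted peroxidase of plasma, set the same pair of samples apart in the other direction. It measured 12.99, 13.38, 12.15 and 12.11 in 3xTg replicates 1 to 4, against 11.86, 12.03, 12.29 and 11.95 in WT replicates 1 to 4. The 3xTg samples of replicates 1 and 2 were above all others, which lay between 11.86 and 12.29. The difference was 0.63 ± 0.24 (SE, 1.55-fold; limma, adjusted p = 0.241). It was 0.39 without replicate 2, and 0.01 on the arrays of replicates 3 and 4 alone, a fit that again leaves out the largest differences. Septal and cholinergic markers were also high in the 3xTg samples of replicates 1 and 2. Their median differed by 0.87, 0.93, 0.43 and 0.05 on the arrays of replicates 1 to 4, with 5 of 7 above 0, and their summed intensity ranged from 14.66 to 15.74 in 3xTg and from 13.77 to 14.51 in WT. Astrocyte and neural stem cell markers had 9 of 12 above 0 and medians of 0.30, 0.35, -0.05 and 0.17, with summed intensities of 17.03 to 17.34 in 3xTg and 16.99 to 17.07 in WT. The part of either in the values of Gpx3, and in those of Gstm7, Gsto1 and Gstz1, was not tested.

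**Figure D3:**
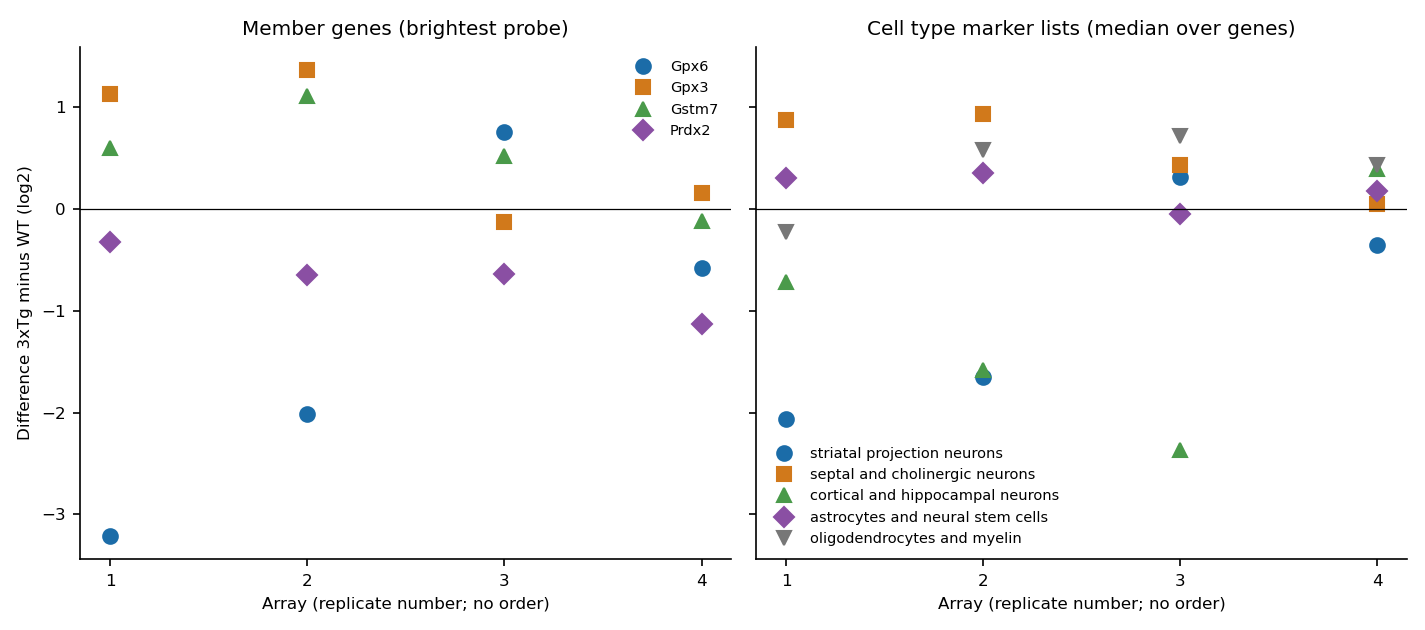
Difference 3xTg minus WT in log2 units on each of the 4 arrays, for 4 member genes (left) and as the median of 5 cell type marker lists (right). Gpx6 and the striatal markers are both lowest on the arrays of replicates 1 and 2, Gpx3 and the septal markers are highest there, and Prdx2 is below 0 on every array.

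Prdx2 was the member nearest to the threshold. It encodes a cytosolic peroxiredoxin that is abundant in neurons and in red blood cells and reduces hydrogen peroxide with electrons from thioredoxin. It measured 13.56, 13.12, 13.50 and 12.60 in 3xTg replicates 1 to 4, against 13.89, 13.77, 14.14 and 13.73 in WT replicates 1 to 4. Every 3xTg sample lay below every WT sample. Its 3xTg mean was 13.19 ± 0.44 and its WT mean 13.88 ± 0.19 (SD over 4 samples in each group), and the difference of -0.69 ± 0.14 (SE; 95% interval -1.01 to -0.37) had an adjusted p of 0.0673 in limma and did not pass. By p it stood at rank 581 among all probes. It passed as lower with the array as a random block (adjusted p = 0.0253), with loess within arrays (0.0483) and with trended and robust moderation (0.0235). It did not pass without the array in the fit (0.55), with median centring (0.0562) or with quantile normalization (0.0874). Nor did it pass without the dimmest probes (0.0668), with probes averaged (0.0619) or on replicates 3 and 4 alone (0.109). With 1 array left out the difference lay between -0.81 and -0.54 and did not pass, with adjusted p of 0.0902 to 0.404.

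The array differences of Prdx2 were -0.33, -0.65, -0.64 and -1.13 for replicates 1 to 4, and its difference on replicates 3 and 4 alone was -0.89. The median striatal marker differed by -2.06, -1.65, 0.31 and -0.36 on the arrays of replicates 1 to 4. Of 7 red blood cell markers 6 lay above 0, with a median of 0.20, and their summed intensity ranged from 11.65 to 13.12 in 3xTg and from 11.62 to 12.68 in WT. Of the cortical and hippocampal markers 6 of 7 lay below 0, with array medians of -0.72, -1.58, -2.37 and 0.39 and summed intensities of 16.21 to 16.70 in 3xTg and 16.68 to 17.43 in WT. The part of any of these cell types in the Prdx2 result was not tested. The other measured peroxiredoxins were closer to 0: Prdx3, of mitochondria, differed by -0.19, Prdx4, of the endoplasmic reticulum, by -0.08, and Prdx1 by -0.06 and 0.07 at its 2 probes. No member probe was assigned to Prdx5 or Prdx6, so these were not examined.

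**Figure D4:**
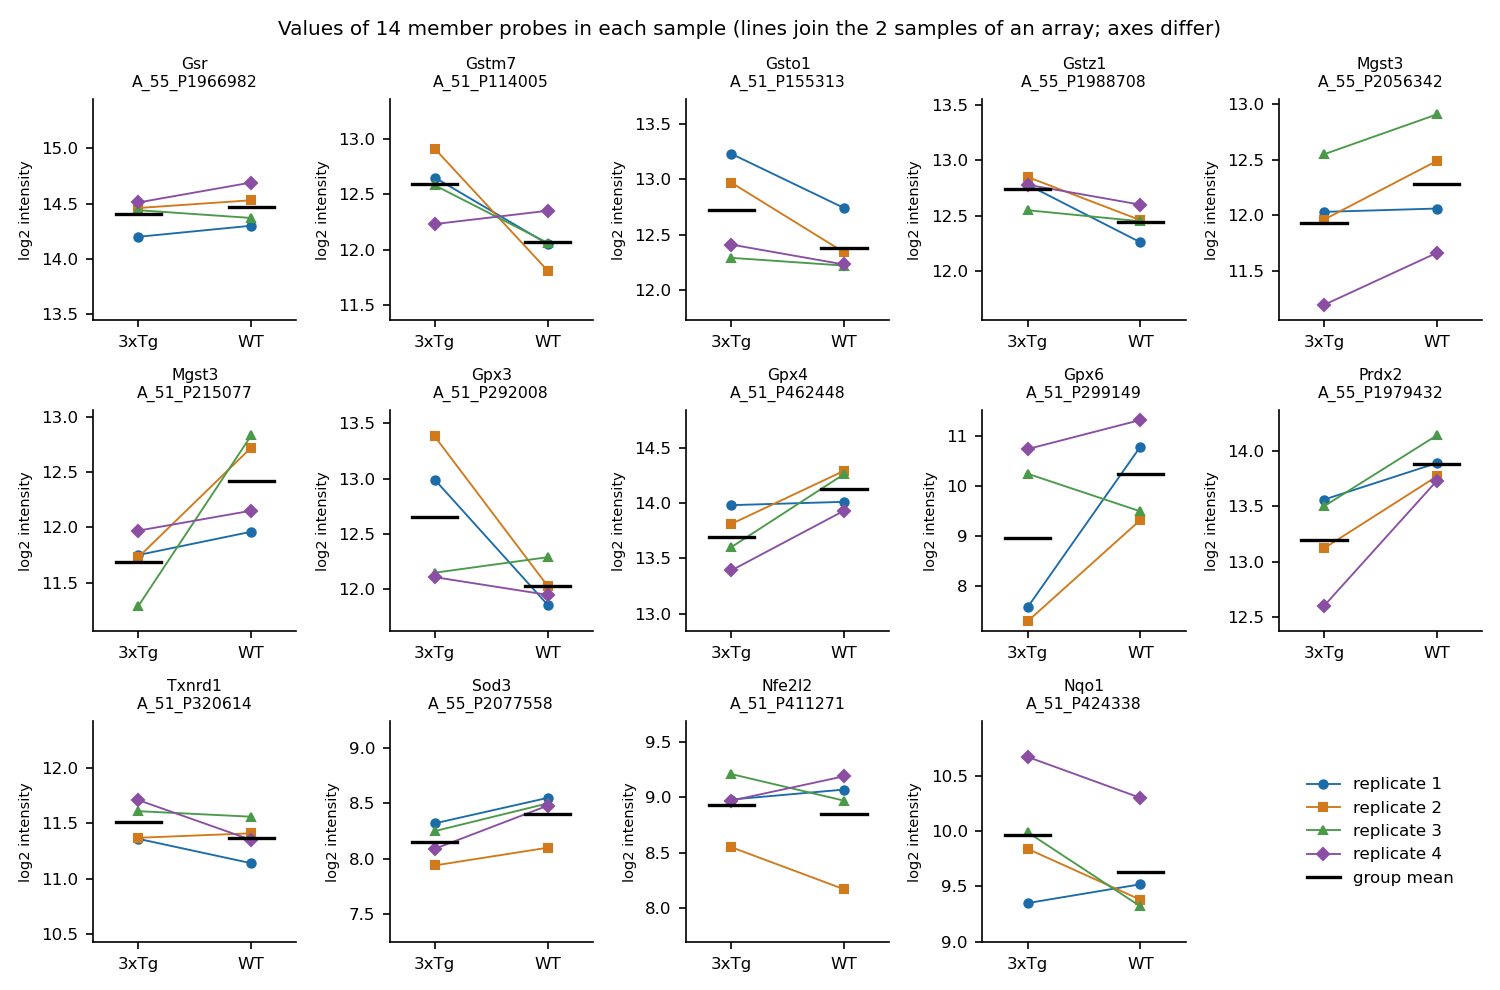
Log2 intensity of the 14 member probes given with values in each sample. Lines join the 3xTg and WT samples of an array and black bars are group means; axes differ between panels. Prdx2 is the panel in which the 3xTg samples (12.60 to 13.56) lie wholly below the WT samples (13.73 to 14.14).

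None of thioredoxin and its reductases passed. Txnrd1, the cytosolic reductase that recharges thioredoxin, measured 11.36, 11.37, 11.61 and 11.71 in 3xTg replicates 1 to 4, against 11.14, 11.41, 11.56 and 11.35 in WT replicates 1 to 4. The groups overlapped, and the difference was 0.15 ± 0.10 (SE; limma, adjusted p = 0.501), and 0.08 without replicate 4. Txn1, thioredoxin itself, differed by -0.01 (95% interval -0.34 to 0.32). Txnrd2, the mitochondrial reductase, and Txnrd3 each differed by -0.03.

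Among the superoxide dismutases and catalase, Sod3, the extracellular dismutase, had the smallest p. It measured 8.32, 7.94, 8.25 and 8.09 in 3xTg replicates 1 to 4, against 8.55, 8.10, 8.50 and 8.48 in WT replicates 1 to 4. It was lower in 3xTg on each array while the groups overlapped. The difference was -0.25 ± 0.09 (SE; limma, adjusted p = 0.223). Sod1, the copper and zinc enzyme of the cytosol, differed by 0.00 (95% interval -0.35 to 0.35), with 0.51 on the array of replicate 1 and -0.43 on that of replicate 4. Sod2, the manganese enzyme of mitochondria, differed by 0.20 (-0.07 to 0.47). Catalase, the peroxisomal enzyme encoded by Cat, differed by 0.16 and 0.08 at its 2 probes, and its brighter probe ranged over the arrays from -0.39 to 0.72.

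Nfe2l2 and the inducible enzymes that serve as its usual readouts did not pass either. Nfe2l2 measured 8.98, 8.55, 9.21 and 8.97 in 3xTg replicates 1 to 4, against 9.07, 8.17, 8.97 and 9.19 in WT replicates 1 to 4. The difference was 0.08 ± 0.13 (SE; limma, adjusted p = 0.793), with 2 arrays above 0 and 2 below, and it was -0.02 without replicate 2. Nqo1, a quinone reductase, measured 9.35, 9.84, 9.99 and 10.67 in 3xTg replicates 1 to 4, against 9.52, 9.38, 9.32 and 10.30 in WT replicates 1 to 4. It was higher in 3xTg on 3 arrays and lower on that of replicate 1, and the difference was 0.33 ± 0.14 (SE; limma, adjusted p = 0.279), and 0.50 without replicate 1. Hmox1, the haem oxygenase that oxidative stress induces, differed by 0.00 (95% interval -0.25 to 0.25) at its brightest probe and by -0.31 ± 0.11 at the other (adjusted p = 0.216 in limma).

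Of the 50 genes 16 had several probes, and for 4 of these the probes differed in sign, namely Gsta3, Gstm1, Gstp2 and Prdx1, none of them by more than 0.27 between probes. The largest spread between probes of a gene was 0.41 for Gstm7, then 0.38 for Mgst3 and 0.31 for Hmox1.

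Other genes of the same chemistry were examined in 7 lists of 102 genes in all, outside the members. At the brightest probe 1 of the 102 passed, Me3, as lower, and 0 passed as higher, where 1.18% of all 21363 genes passed in either direction. A single gene in a list of this length is close to that share. The lists had medians between -0.06 and 0.09, beside 0.01 over all genes. Me3, a mitochondrial malic enzyme that generates NADPH, measured 11.90, 12.01, 12.53 and 12.16 in 3xTg replicates 1 to 4, against 12.63, 13.02, 13.01 and 12.71 in WT replicates 1 to 4. Every 3xTg sample lay below every WT sample, and the gene fell by 0.69 ± 0.12 (SE; 95% interval -0.96 to -0.42; limma, adjusted p = 0.042). Its remaining probes gave -0.85 and -0.66. It did not pass without the array in the fit (adjusted p = 0.337), with quantile normalization (0.0597), with its probes averaged (0.0573), on replicates 3 and 4 alone (0.599), or without replicate 1 (0.141), 2 (0.322) or 4 (0.0765). The other 15 genes of NADPH supply did not pass.

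Among 18 other target genes of Nrf2, 8 lay above 0, the median was -0.02, and none passed at the brightest probe. Trim16, a ubiquitin ligase, passed at its dimmer probe alone. That probe measured 7.22, 7.55, 7.75 and 7.90 in 3xTg replicates 1 to 4, against 6.61, 7.02, 7.16 and 7.48 in WT replicates 1 to 4, and rose by 0.53 ± 0.09 (SE; limma, adjusted p = 0.0466), while the brighter one differed by -0.08. The groups overlapped, and the call was lost with any 1 array left out (adjusted p of 0.0746 to 0.353), on replicates 3 and 4 alone (0.637), with quantile normalization (0.058), without the array in the fit (0.727) and with its probes averaged (0.244).

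In the other lists the gene of smallest p at any of its probes did not pass. Mafg, a small Maf protein that binds DNA together with Nrf2, differed by -0.48 ± 0.11 at its brightest probe (limma, adjusted p = 0.0884) and by -0.46, -0.26 and -0.24 at the others. Of 10 partners and repressors of Nrf2, 6 lay above 0 and the median was 0.09; Keap1, its main repressor, differed by -0.07. Slc7a11, which imports cystine in exchange for glutamate and so supplies glutathione synthesis, differed by 0.57 ± 0.12 (limma, adjusted p = 0.0795) and was higher in 3xTg on all 4 arrays. Of the 15 genes of uptake and glutathione breakdown in that list 10 lay above 0, with a median of 0.05. Txndc12, a thioredoxin-like protein of the endoplasmic reticulum, differed by -0.42 ± 0.11 (limma, adjusted p = 0.109) in a list of 19 with a median of -0.03. Mt1, a metallothionein, differed by -0.34 at its dimmer probe (limma, adjusted p = 0.127) and by -0.06 at its brighter one. In its list of 14, with a median of -0.06, Hmox2 had the smallest p at a brightest probe. Hmox2 differed by -0.36 ± 0.13 (limma, adjusted p = 0.227) and lay below 0 on all 4 arrays. Nos1, the neuronal nitric oxide synthase, differed by 0.31 at its dimmer probe (limma, adjusted p = 0.185) and by 0.01 at its brighter one, in a list of 14 sources of superoxide and nitric oxide with a median of 0.04.

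**Figure D5:**
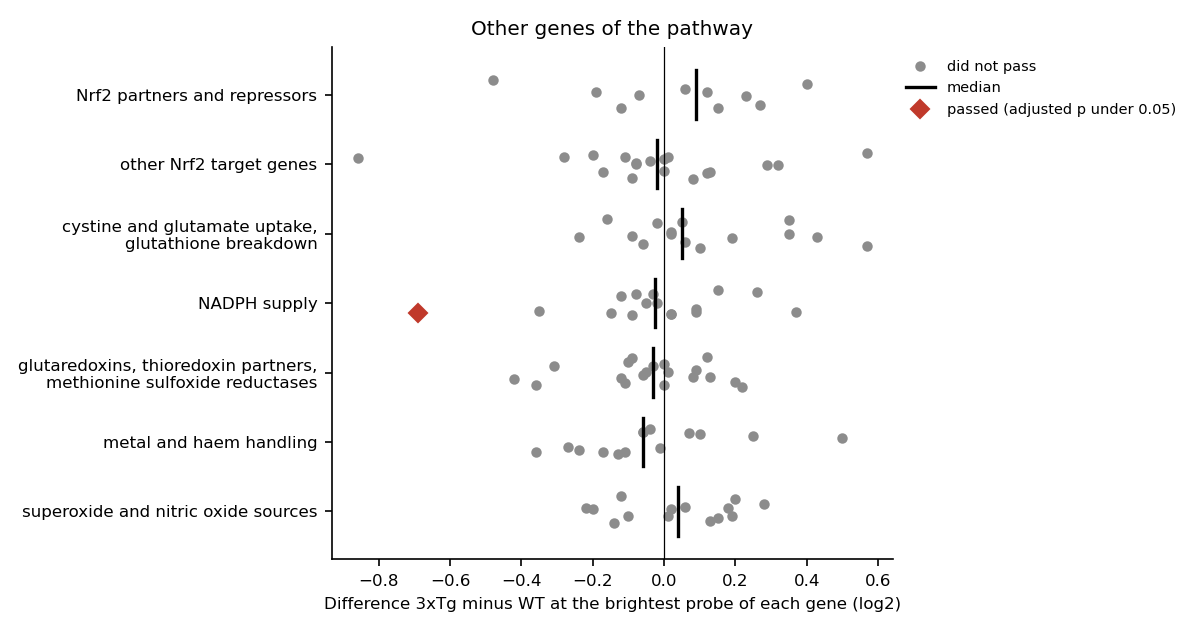
Difference 3xTg minus WT in log2 units at the brightest probe of each gene in 7 lists of related genes; each point is a gene, black bars are list medians and the diamond is the gene that passed. List medians lie between -0.06 and 0.09, and Me3 at -0.69 is the gene that passed.

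The tissue label was checked against marker lists. Of the markers of the niche, 8 of 11 ependymal and 8 of 10 neuroblast and transit-amplifying genes had a mean intensity above the median of all probes, and 4 of 9 genes of proliferating cells did. All 9 proliferation genes lay below 0 in 3xTg minus WT, and 2 of them, Cenpa and Ube2c, passed as lower. Of the markers of neighbouring cells, the mean was above that median for 10 of 10 striatal, 6 of 7 cortical and hippocampal and 5 of 7 septal and cholinergic markers. It was above that median for 11 of 11 oligodendrocyte and myelin, 2 of 8 choroid plexus and 0 of 5 border macrophage markers. In 3xTg minus WT all 11 oligodendrocyte and myelin markers lay above 0, with a median of 0.33, and none passed. Their array medians were -0.23, 0.58, 0.71 and 0.43 for replicates 1 to 4. Of the 7 septal and cholinergic markers 2 passed as higher. The part of these cell types in the member values was not tested. Sample medians lay between 10.12 and 10.15, and no member probe was at the highest value of its sample, so no member value was limited by saturation. That does not hold for all related genes. The brightest Glrx2 probe was at the highest value in all 8 samples, so its difference of 0.00 is uninformative, and its other probes gave -0.31 and -0.05. The brightest Sqstm1 probe was at the highest value in 2 samples. Detection above background could not be assessed from the deposited values.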

How the data were processed

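Total RNA of microdissected subventricular zone was reverse transcribed, labelled and hybridised to 2-colour arrays, per the labels' protocols. The deposited values are log2 intensities that the authors had normalized; limma was used per the submitters' processing notes, with no version listed. How background was corrected and how intensities were normalized is not given in the sources used here. Scanner files were not used. The number of arrays, 4, limits the precision. The design text calls the replicates biological.

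Probes were named by the platform annotation (29769 with 1 symbol, 0 with several, 2915 with none), and 29519 matched RefSeq (GRCm38.p6) by Entrez identifier; all 70 member probes did. The fit used limma 3.58.1 (R 4.3.3) and took the array as a fixed effect. Moderation was limma's default, and two-sided p-values were adjusted over all probes by Benjamini-Hochberg. Pairing by replicate number comes from the shared scanner file in the labels, and deviations from group means correlated at 0.54 to 0.82 within arrays, against at most 0.18 between them. A gene stands for its brightest probe on average, except that the smallest p of a related list was taken over all probes. The fit was run on values simulated from its own model, which cannot test the assumptions of that model. Members and lists were chosen with earlier results of these data known. Values in every sample are given for probes that passed, for the smallest p of each role group (3 where it has more than 5 genes), for probes of 1 sign with a difference above 0.5, for genes whose probes differ in sign with an unadjusted p under 0.05, and for Nfe2l2; of each related list, probes that passed or else the gene of smallest p are named. The alternatives were no array in the fit, the array as a random block (statmod 1.5.0), median centring, quantile normalization, loess within arrays (span 0.3), trended and robust moderation, leaving out the dimmest 25% of probes, averaging a gene's probes, and leaving out each array. A fit on replicates 3 and 4 alone was added after seeing the data. Lists were described by counts and medians and not tested.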

Additional observations from a re-analysis of the deposited data

Results flagged for a closer look

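In 6 of 140 combinations of member probe and group, 1 sample lay far from the other 3 by Dixon's test, which sets apart about 5% of such groups by chance. In 3xTg samples these were a Gstm2 probe (A_55_P1966438) at 9.72 in replicate 1, against 8.65 to 8.82 in the others, and another (A_55_P2134004) at 10.79 in replicate 4, against 10.98 to 11.02. In WT samples Txn1 was at 12.80 in replicate 1, against 13.35 to 13.40, and Txnrd3 at 7.02 in replicate 4, against 7.89 to 8.01. In WT replicate 2 the brighter Gstm3 probe was at 14.09, against 14.52 to 14.53, and Sod3 at 8.10, against 8.48 to 8.55.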

How the results depend on the processing

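The count of member probes that passed was 0 higher and 0 lower under most settings, including each fit with 1 array left out and the fit on replicates 3 and 4 alone; 1 probe, Prdx2, passed as lower with the array as a random block, with loess within arrays and with trended and robust moderation. The count over all probes moved far more. Without the pairing of samples by array, 47 probes were higher and 31 lower, with 0 members among them. The counts were 551 and 758 with a random block, 405 and 500 with trended and robust moderation, and 132 and 115 with quantile normalization, against 203 and 197 probes in the fit reported. With the probes of a gene averaged 119 genes were higher and 128 lower, close to the 120 and 133 genes that passed at their brightest probe. They were 101 and 60 on replicates 3 and 4 alone, and 12 to 185 higher and 19 to 229 lower with 1 array left out, the lowest of both without replicate 2. The median over member genes lay between -0.05 and 0.04, and between 19 and 33 of them lay above 0, both extremes with 1 array left out. The sign reversed for Nfe2l2 without replicate 2 (-0.02, in a range up to 0.18 with 1 array left out) and for Gpx6 on replicates 3 and 4 alone (0.08). The causes were not tested. The probe of Sod3 and the dimmer probe of Trim16 are among those left out as dimmest and have no value there. Signal over background is unknown, so that dim probes such as those of Txnrd3 and Gstt4 have no stated limit of detection.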

Other observations

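Among the related genes, Cbr3, a carbonyl reductase counted among the targets of Nrf2, was chosen after its values were seen. It measured 10.25, 10.60, 11.56 and 11.55 in 3xTg replicates 1 to 4, against 11.67, 11.54, 11.99 and 12.19 in WT replicates 1 to 4. It was lower in 3xTg on every array, with array differences of -1.42 to -0.43, and differed by -0.86 ± 0.16 (SE; limma, adjusted p = 0.0569), so that it lay just outside the threshold, opposite in sign to Slc7a11 (0.57) and Nqo1 (0.33) of the same regulatory programme. Srxn1, the reductase that restores overoxidised peroxiredoxins, differed by -0.09.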
